A study of Caenorhabditis elegans with 2 samples.

Results

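The genes for the proteins of the small (40S) ribosomal subunit were examined for binding of the transcription factor HLH-30 in Caenorhabditis elegans. They were chosen as the protein-coding genes on the nuclear chromosomes whose name begins with rps-, which gave 31 of 19973 protein-coding genes. Chromatin immunoprecipitation followed by sequencing (ChIP-seq) had been done on whole hermaphrodites at the L4 larval stage, with an antibody against GFP. Both samples came from strain OP433, which carries the unc-119(tm4063) allele on chromosome III and the transgene wgIs433, and stably makes HLH-30 with a GFP-FLAG tag at its C-terminal end. They were 2 biological replicates of 1 group, from separate biosamples, so there was no second condition and no test between groups, and a standard deviation (SD) over replicates rests on n = 2. A tagged protein made from a transgene was measured, and whole animals do not show in which cells it was bound.

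Each 40S subunit holds the 18S ribosomal RNA and about as many proteins as there are rps genes, nearly all from single genes in C. elegans. The subunit's head, body and platform together form the mRNA channel and the decoding centre, where codons are read. The proteins are needed in equal numbers, and their genes are among the most strongly transcribed in growing cells. HLH-30 belongs to the basic helix-loop-helix leucine-zipper factors and is the worm relative of mammalian TFEB, known for switching on autophagy and lysosome genes through E-boxes of the form CACGTG and close variants.

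The sequences at a few summits of binding are shown first, for the words that recur in them and for the E-boxes that most of them lack. A summit is the position of the highest signal within a peak, and each promoter window took in the 1000 bp before and the 200 bp after an annotated transcript 5′ end. Each sequence below runs 5′ to 3′ on the strand of the rps gene in build ce11 (WBcel235), taken from the RefSeq genome, and covers 50 bp on each side of the summit unless stated. Capitals mark E-boxes CACGTG or CACATG and 3 hexamers that recurred at rps summits, GAGACC (reverse complement GGTCTC), then CGCAGC (reverse complement GCTGCG) and ACCGTA (reverse complement TACGGT), on either strand. The first pair are the strongest rps summits whose sequence is shown, those of rps-1 (chrIII:4475606-4475706, plus strand) and rps-12 (chrIII:5679079-5679179, plus strand), each with a single marked hexamer.
rps-1: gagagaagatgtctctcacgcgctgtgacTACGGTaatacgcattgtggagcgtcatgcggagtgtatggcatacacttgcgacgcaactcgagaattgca
rps-12: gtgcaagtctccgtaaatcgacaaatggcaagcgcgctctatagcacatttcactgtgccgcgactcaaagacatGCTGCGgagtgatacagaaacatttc
The next 3 carry GAGACC and CGCAGC joined in 1 run, GGTCTCGCAGC or its reverse complement, in which both hexamers share 1 base. They belong to rps-11 (chrIV:11602266-11602366, plus strand), rps-25 (chrIV:5947880-5947980, minus strand) and rps-30 (chrV:7776290-7776390, plus strand).
rps-11: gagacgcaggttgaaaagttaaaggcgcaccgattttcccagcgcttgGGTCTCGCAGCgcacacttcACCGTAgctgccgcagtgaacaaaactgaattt
rps-25: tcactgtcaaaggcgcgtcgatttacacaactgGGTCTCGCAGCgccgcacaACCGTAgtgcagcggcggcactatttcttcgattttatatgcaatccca
rps-30: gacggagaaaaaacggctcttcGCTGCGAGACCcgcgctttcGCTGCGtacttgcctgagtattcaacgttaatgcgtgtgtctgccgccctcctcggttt
The promoter of rps-4 had no peak in the thresholded list. The summit called there in replicate 2 (chrIV:7084945-7085045, minus strand, not shown) had CGCAGC, without GAGACC or the joined run. The summit called in replicate 1, shown next, had the same joined run (chrIV:7084876-7084976, minus strand).
rps-4: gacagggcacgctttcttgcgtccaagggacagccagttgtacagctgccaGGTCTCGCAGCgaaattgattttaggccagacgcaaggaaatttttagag
The last pair hold the E-box CACGTG. In rps-29 it lay at the main summit, shown without its first 15 bases, some of which belong to the neighbour snt-2 (chrIII:793740-793825, plus strand). In rps-28 it lay at a second, weaker summit (chrIV:1658746-1658846, plus strand).
rps-29: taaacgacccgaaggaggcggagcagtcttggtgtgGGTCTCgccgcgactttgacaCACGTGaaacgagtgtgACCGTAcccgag
rps-28: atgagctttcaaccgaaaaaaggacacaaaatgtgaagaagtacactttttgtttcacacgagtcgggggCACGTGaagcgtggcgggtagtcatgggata

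Most rps promoters were occupied. In the authors' thresholded list of 7168 peaks, made with the irreproducible discovery rate (IDR) from both replicates and their pool, 27 of 31 rps genes (87.1%, 95% Wilson interval 71.15 to 94.87, counting error only) had a summit in a promoter window, against 4012 of 19973 protein-coding genes (20.1%). The count was 28 of 31 among the strongest 7168 entries of replicate 1 alone (20.2% of all genes) and 30 of 31 among those of replicate 2 alone (20% of all genes). A summit in both of these was found for 28 rps genes (90.3%), against 3359 of all genes (16.8%). The large-subunit rpl genes had a near-equal share, 41 of 47 (87.2%, interval 74.8 to 94.0). The mrps genes, for the small subunit of the mitochondrial ribosome, had 10 of 29 (34.5%, interval 19.9 to 52.65). These are descriptions of genes, which are not replicates of each other.

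The occupied rps genes lay on 5 of the chromosomes: 7 of 8 on chromosome I, the single one on II, all 9 on III, 8 of 10 on IV and 2 of 3 on V, with no rps gene on X. By position in the subunit, 12 of 13 genes for head proteins and 15 of 18 for body and platform proteins were occupied. Pooled signal, the authors' score of peak strength, whose scale is unstated, had a median of 154.7 over the 12 head genes (54.9 to 425) and 111.7 over the 15 body and platform genes (59.2 to 491). The ranges overlapped almost entirely.

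The summits at rps genes were among the stronger ones. Median pooled signal at the 27 main summits (the strongest for each gene) was 140, against 111 at the 41 rpl summits, 66.2 at all 3679 promoter summits and 61.8 over the whole list. At the 3237 main summits of all genes it was 69.3. Of the 27, 16 stood among the strongest 1433 of the 7168 peaks and 25 among the strongest 3584. A promoter summit among those 3584 was found for 25 of 31 rps genes (80.65%), against 2332 of 19973 genes (11.7%). Counting all 31 genes, with 0 for a promoter without any pooled entry, the median of the best pooled entry was 130 for rps genes, 106 for rpl genes and 0 for all genes. Peaks at rps summits had a median width of 210 bp (93 to 350), against 350 bp over all promoter summits and 238 bp over the strongest 1433 peaks. Pooled entries near rps genes that were too weak for the thresholded list were all 350 bp wide, so 350 bp may be a set width and not a measured one. The summit was the exact centre of the peak for 65.45% of all promoter summits and 22.2% of rps main summits. The median pooled signal describes a level within 1 list and is no estimate of the number of bound molecules.

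The strongest rps summit was that of rps-1, whose protein (RPS3A in humans) sits on the platform near the exit of the mRNA channel. Its peak (chromosome III, 4475527 to 4475794) ranked 56th in the list, with a pooled signal of 491. The signal was 263 in replicate 1 and 225.5 in replicate 2, or 244 ± 26.3 (SD, n = 2). The summit lay 262 bp upstream of the rps-1 5′ end, in a region shared with ifet-1, a gene read the other way that encodes a translational repressor binding the cap-binding factor eIF4E. The annotation also places the noncoding RNA genes F56F3.10 and F56F3.11 over it.

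Second was rps-19, whose human counterpart is the gene most often mutated in Diamond-Blackfan anaemia (chromosome I, 9625949 to 9626212). It ranked 85th with a pooled signal of 425, from 225 in replicate 1 and 199 in replicate 2 (212 ± 18.2, SD, n = 2). Its summit, 293 bp upstream, was shared with hsr-9, the worm relative of the DNA-damage protein 53BP1. The third, rps-12, encodes a protein of the head's beak (chromosome III, 5679014 to 5679257). Its pooled signal was 347, with 171 in replicate 1 and 177.5 in replicate 2 (174 ± 4.85, SD, n = 2), and its summit, 169 bp upstream, was shared with ska-3. These 3 stood apart from the rest: the lowest replicate value among them, 171, was above every replicate value of the other rps genes, the highest of which was 125.

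The next 5 were close to each other, with pooled signals of 196 to 219. For rps-20, a head protein gene (chromosome I, 14469202 to 14469464), pooled signal was 219 and the replicates gave 106 and 115 (111 ± 6.13, SD, n = 2), at 248 bp upstream and shared with ekl-4. For rps-28 (chromosome IV, 1659125 to 1659362) pooled signal was 212 and the replicates gave 125 and 88.3 (107 ± 25.9, SD, n = 2), at 441 bp upstream. That summit also fell in the window of Y41D4B.4, which lies downstream of rps-28 on the same strand. The rps-28 promoter was the single one with a second thresholded summit, 895 bp upstream, with a pooled signal of 72.4 and replicate values of 29.3 and 45.3 (37.3 ± 11.3, SD, n = 2). Replicate 1 was higher at the main summit of rps-28 and replicate 2 at the second.

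For rps-13, a body protein gene (chromosome III, 6375089 to 6375330), pooled signal was 209 and the replicates gave 125 and 84.3 (105 ± 28.7, SD, n = 2), at 209 bp upstream and shared with nfx-1. For rps-23, whose protein reaches into the decoding centre (chromosome IV, 12391207 to 12391445), pooled signal was 205 and the replicates gave 112 and 93.3 (103 ± 13.4, SD, n = 2). It lay 285 bp upstream and was shared with dpm-3, a subunit gene of the enzyme that makes dolichol-phosphate mannose. For rps-15, a head protein gene (chromosome I, 8816469 to 8816678), pooled signal was 196 and the replicates gave 93.4 and 98.5 (95.95 ± 3.62, SD, n = 2), at 383 bp upstream and shared with F36A2.9. The replicate means of these 5, 95.95 to 111, differed by less than the largest SD between replicates among them, 28.7, so their order is not resolved.

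Next in order were rps-3 and rps-10. The rps-3 protein lines the entry of the mRNA channel (chromosome III, 6206337 to 6206540). Its pooled signal was 156.5, with 74.9 in replicate 1 and 80.2 in replicate 2 (77.6 ± 3.76, SD, n = 2), 358 bp upstream and shared with sna-3. The head protein gene rps-10 (chromosome I, 4584739 to 4584949) had a pooled signal of 153 and replicate values of 86.15 and 68.05 (77.1 ± 12.8, SD, n = 2). Its summit, 337 bp upstream, was shared with rpl-24.1, a large-subunit gene read the other way. The 2 genes did not differ beyond the spread between replicates.

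The middle 14 genes were rps-8, rps-22, rps-29, rps-18, rps-17, rps-0, rps-24, rps-30, rps-14, rps-21, rps-26, rps-9, rps-27 and rps-25, in falling order of pooled signal. Their pooled signals ran from 64.1 to 150, with 37.1 to 89.5 in replicate 1 and 27.6 to 75.4 in replicate 2. The proteins of rps-14 and rps-26 sit near the mRNA exit. At the low end stood rps-6, rps-11 and rps-5. The rps-6 protein is the classic substrate of the ribosomal S6 kinase. Its pooled signal was 63.1 at 332 bp upstream, shared with usp-3, with 38.8 in replicate 2 and no entry in the list of replicate 1. For rps-11, a body protein gene, pooled signal was 59.2 with replicate values of 32.0 and 26.7 (29.4 ± 3.75, SD, n = 2), 325 bp upstream, in no other gene's window. For rps-5, a head protein gene, pooled signal was 54.9 with 25.5 and 28.1 (26.8 ± 1.85, SD, n = 2), 379 bp upstream, also alone. The lowest signal of any peak in the list was 31.9.

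**Figure D1:**
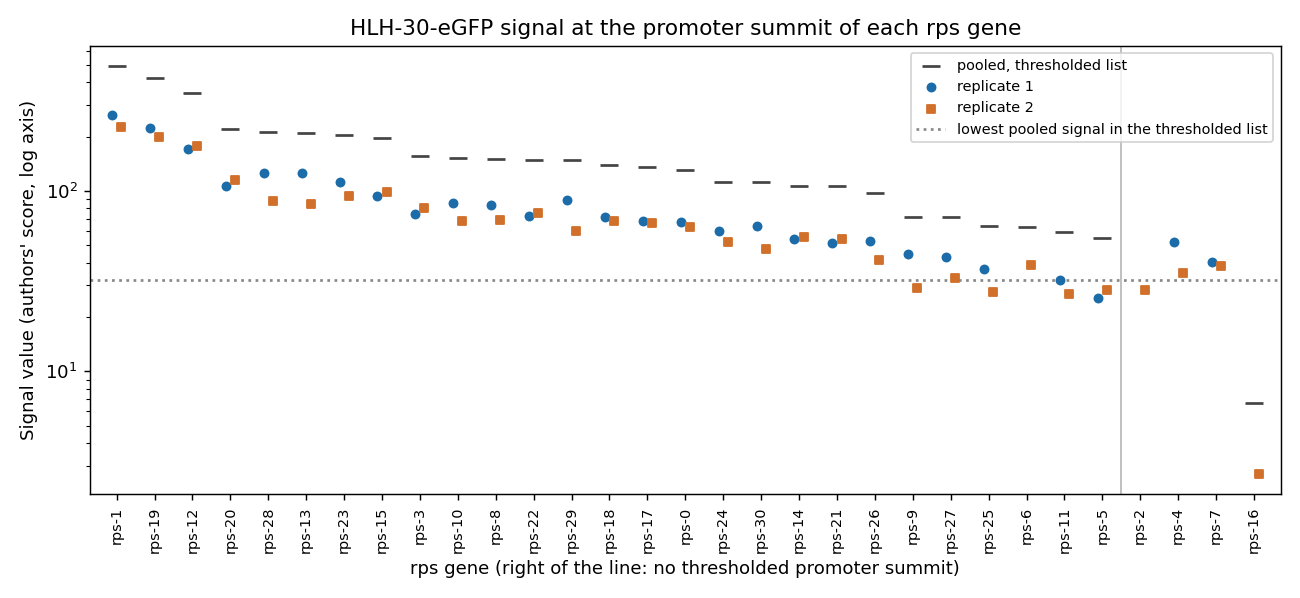
Signal value (the authors' score, log axis) of the strongest promoter summit of each of the 31 rps genes: bars give the pooled value, circles replicate 1, squares replicate 2, and the dotted line the lowest pooled signal of the thresholded list, 31.9. Genes right of the vertical line had no thresholded promoter summit; rps-1, rps-19 and rps-12 stand above all others in both replicates.

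Replicate entries were compared at the pooled summit of each gene. For the 26 genes with both values, the summits called in the replicates lay a median of 15 bp apart (1 to 73). Both entries had to cover the pooled summit, so the gap was bounded by that matching. No gap over all promoter summits is set beside it. Replicate 1 was the higher in 18 genes and replicate 2 in 8. The ratio of replicate 1 to replicate 2 had a median of 1.16 and ran from 0.907 to 1.54, and rps-9 alone was over 1.5.

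The 4 rps genes without a thresholded promoter summit were rps-2, rps-4, rps-7 and rps-16. At 3 of them a replicate list did hold an entry upstream of the gene. At rps-4, a body protein gene (WBGene00004473), replicate 1 had an entry of signal 52.1 at 244 bp upstream (rank 1820 of 30000) and replicate 2 one of 35.05 at 313 bp (rank 3210), or 43.6 ± 12.03 (SD, n = 2). At rps-7 (WBGene00004476), the entries were 40.2 at 266 bp (rank 2676) and 38.2 at 273 bp (rank 2872), or 39.2 ± 1.4 (SD, n = 2). The pooled list had no entry within 2500 bp of either 5′ end, although both replicate means were above those of rps-5 and rps-11. A thresholded peak had to be an entry of the pooled list, so neither gene could be counted as occupied there. Over the whole list, 51 of the 5734 strongest replicate 1 entries that were shared with the strongest of replicate 2 (0.889%) had no pooled entry. Of the 28 rps genes with a summit in both, 2 had none. The first share counts overlapping entries at any place and the second counts genes by their promoter windows, so they are not like for like. Taken singly, 165 of the strongest 7168 entries of replicate 1 (2.30%) and 156 of those of replicate 2 (2.18%) had no pooled entry at the same place.

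At rps-2, whose protein sits at the mRNA entry (WBGene00004471), replicate 2 had an entry of 28.1 at 197 bp upstream (rank 4278), and neither replicate 1 nor the pool had one in the window. At rps-16, whose protein reaches towards the transfer RNA in the ribosomal P site (WBGene00004485), the window held a pooled entry of 6.65 (rank 22432 of 30000) at 127 bp downstream and a replicate 2 entry of 2.70, both weak. The gene starts 110 bp downstream of fib-1 on the same strand. The fib-1 gene encodes fibrillarin, the nucleolar methyltransferase of ribosomal RNA, and had a promoter summit of its own with a pooled signal of 107 and replicate values of 56.1 and 49.8. That summit was 59 bp upstream of fib-1 and 1741 bp upstream of rps-16. Whether rps-16 and fib-1 are transcribed as 1 unit was not tested.

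**Figure D2:**
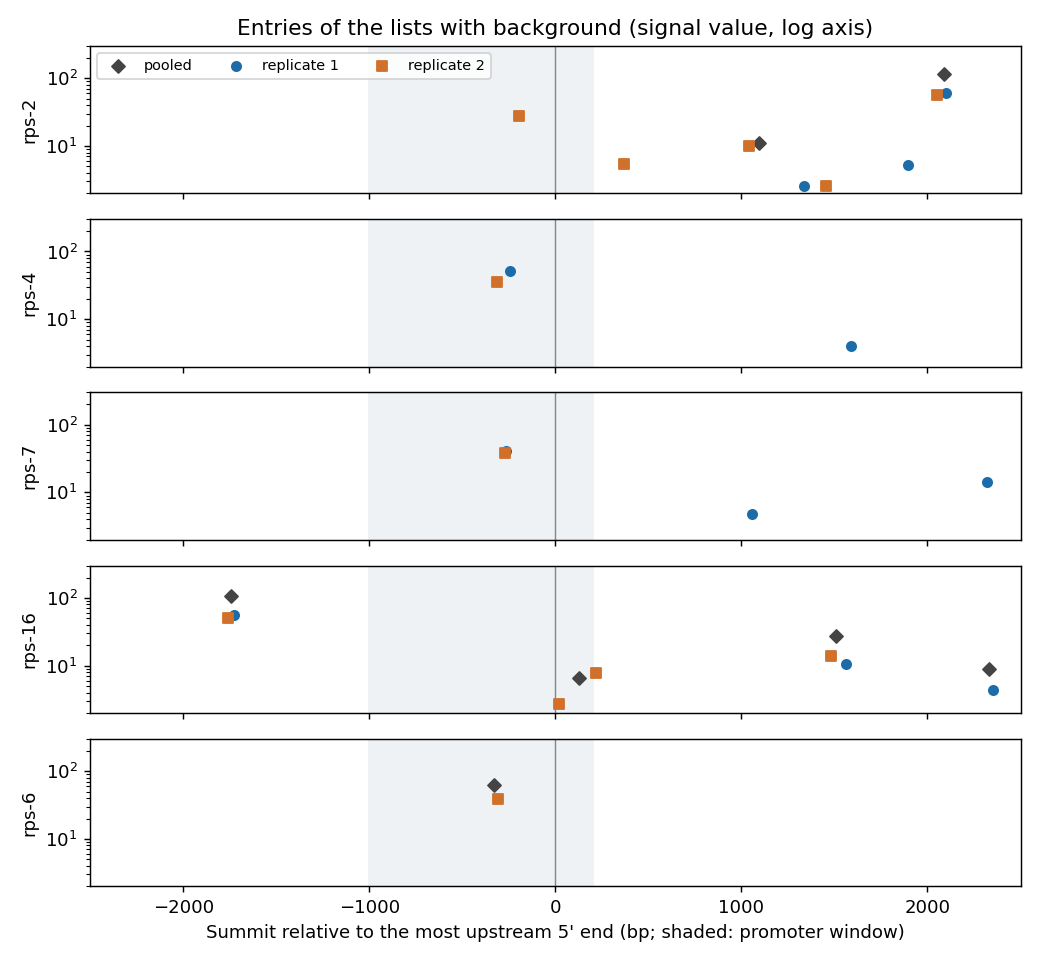
Entries of the pooled, replicate 1 and replicate 2 lists that include background, around rps-2, rps-4, rps-7, rps-16 and, for comparison, rps-6, which has a thresholded summit; x is bp from the most upstream 5′ end, y the signal value on a log axis, and the promoter window is shaded. Entries of both replicates lie upstream of rps-4 and rps-7 with no pooled entry beside them.

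The distance from the gene varied less than over all genes. All 27 main summits lay upstream of the nearest annotated 5′ end, at a median of 302 bp (middle 50% from 255 to 368.5 bp, full range 116 to 594 bp). In the band from 200 to 400 bp upstream stood 21 of 27 rps summits (77.8%), against 29 of 41 at rpl genes (70.7%) and 1069 of 4012 at all occupied genes (26.7%). The median was 307 bp for rpl genes, 158 bp for mrps genes and 232 bp for all genes, and the middle 50% spanned 113.5 bp for rps genes, 112 bp for rpl genes, 76.25 bp for mrps genes (10 summits) and 346 bp for all genes. The nearest were rps-22 at 116 bp, rps-12 at 169 bp and rps-13 at 209 bp. The farthest were rps-27 at 594 bp, rps-29 at 525 bp and rps-18 at 466 bp. Many worm transcripts are trans-spliced, so that the annotated 5′ end need not be where transcription begins.

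**Figure D3:**
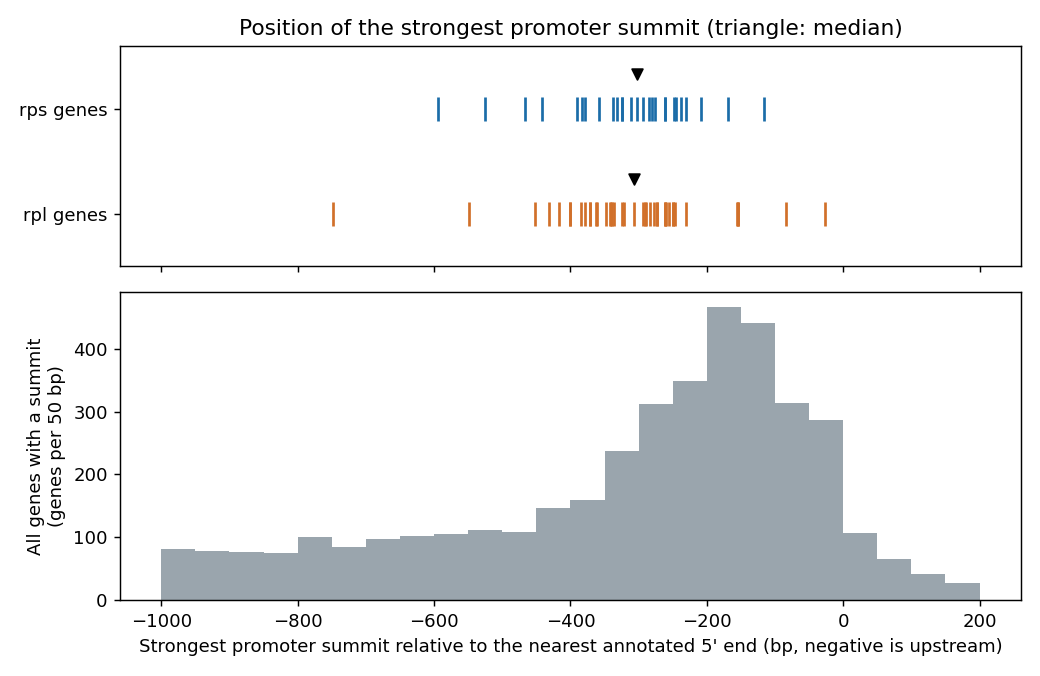
Position of the strongest promoter summit relative to the nearest annotated 5′ end, in bp with negative values upstream. Upper panel: 1 tick per gene for the 27 rps and 41 rpl genes, with triangles at the medians of 302 and 307 bp upstream. Lower panel: number of genes per 50 bp for occupied genes, where the peak lies closer to the 5′ end and the spread is wider. Occupied genes with a summit more than 200 bp downstream of that end are not drawn in the lower panel.

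At 19 of the 27 genes, the summit was shared with an upstream neighbour read the other way and at most 1000 bp away. An opposite-strand upstream neighbour shared the main summit at 27 of 41 occupied rpl genes and 1196 of 4012 occupied genes in all. Such a neighbour within 1000 bp was present for 19 of 31 rps genes, 30 of 47 rpl genes and 4239 of 19973 genes. Of the 27 rps summits, 26 (96.3%) lay outside any protein-coding gene, against 90.2% of rpl summits and 71.6% of all promoter summits. The exception, at rps-18, fell in an annotated untranslated exon of the neighbour sec-61.A, which encodes the channel of the protein translocon. No rps gene had a thresholded summit in its own body. The share over all genes is not given here, so this absence tells little about rps genes. At 4 of the 27 (rps-1, rps-6, rps-10 and rps-30) the annotation placed a noncoding RNA gene over the summit (14.8%). The share was near-equal at rpl summits, 6 of 41 (14.6%), and 7.23% over all promoter summits.

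In 20 of 27 cases (74.1%) the summit lay in the window of at least 1 other gene, against 29 of 41 at rpl genes. The share was 22.0% of all promoter summits and 23.6% of the main summits of all genes. A shared summit cannot be given to 1 gene. The rps gene had the nearest 5′ end in 14 of 27 cases. If a summit counts for the closest gene and no other, 14 of 31 rps genes (45.2%) are occupied, against 16.3% of all genes. Summits were shared with rpl genes 3 times: rps-10 with rpl-24.1, rps-14 with rpl-36 (and ndab-2), and rps-30 with rpl-39 (and C26F1.3). In the other 7, rps-5, rps-8, rps-11, rps-17, rps-21, rps-24 and rps-25, the summit was in the rps window alone.

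Orientation of the upstream neighbour ran with occupancy. All 22 rps genes whose upstream neighbour is on the opposite strand were occupied, and 5 of the 9 whose neighbour is on the same strand were. The 4 genes without a thresholded summit thus all had a same-strand neighbour: C49H3.12 (357 bp from rps-2), deb-1 (533 bp from rps-4), Y106G6G.1 (479 bp from rps-7) and fib-1. Of 19 rps genes with an opposite-strand neighbour within 1000 bp, 19 were occupied. The same count was 28 of 30 for rpl genes and 1334 of 4239 for all genes (31.5%). All 19 rps genes shared the main summit with that neighbour. A summit between 2 such genes lies in both windows, so this sharing follows from the window and is no separate result. At any distance, occupied rpl genes numbered 29 of 32 with an opposite-strand neighbour and 12 of 15 with a same-strand one. Over all genes the counts at any distance were 2346 of 9159 (25.6%) and 1646 of 10700 (15.4%). With replicate entries in place of the thresholded list, rps-4 and rps-7 count as occupied in both and rps-2 in replicate 2, and how far orientation itself matters was not tested.

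The E-boxes CACGTG and CACATG were scarce at rps summits. Within 50 bp, on either strand, 1 of 27 main summits had one (3.70%), the CACGTG of rps-29, against 4 of 41 at rpl summits (9.76%), 21.5% of all promoter summits and 33.7% of the strongest 1433 peaks. The share was 20.6% of the main summits of all genes. In windows of the same length centred 302 bp upstream of every protein-coding gene, CACGTG was found in 1.54% and CACATG in 3.11%. The rps-29 summit had a pooled signal of 148, from 89.5 in replicate 1 and 59.7 in replicate 2 (74.6 ± 21.1, SD, n = 2), in the middle of the order. The 3 strongest rps summits had neither word. Of the other 8 forms of CANNTG the most frequent, CAAATG, was found at 4 rps summits (14.8%, against 9.13% of all promoter summits). CAAGTG was found at 3 (11.1%, against 7.61%) and CAATTG at 2 (7.41%, against 4.27%). CAACTG was found at 1 (3.70%, against 6.63%), CAGATG at 1 (against 4.97%) and CAGCTG at 1 (against 3.94%). That no match was found says only that these letters are missing from a window of 101 bp.

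Other words recurred instead. Among all 2080 hexamers, with reverse complements joined, the 3 shown in capitals above had the largest excess at rps summits over all promoter summits; they were chosen on these same data, so their shares at rps summits are a description. GAGACC was found at 11 of 27 rps summits (40.7%), 16 of 38 rpl summits (42.1%) and 7.69% of all promoter summits. CGCAGC was found at 10 rps (37.0%), 8 rpl (21.1%) and 4.51% of all promoter summits. ACCGTA was found at 10 rps (37.0%), 18 rpl (47.4%) and 5.52% of all promoter summits. The 38 rpl summits leave out the 3 shared with rps genes and were not used to choose the words, except as 38 of the 3679 promoter summits set beside the rps genes. In windows of the same length centred 302 bp upstream of all genes the shares were 2.95% for GAGACC, 1.25% for CGCAGC and 3.01% for ACCGTA. None of the 3 was found in windows centred 500 bp to the left of the 27 rps summits, at lower coordinates whatever the strand. For minus-strand genes such as rps-0 that window fell in the rps gene itself. At shares as low as those over all genes, 27 windows would hold few matches or none, so this absence tells little. In windows centred 302 bp upstream of the 4 rps genes without a thresholded summit, GAGACC was found at 3, CGCAGC at 2 and ACCGTA at 0.

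At least 1 of the 3 hexamers stood at 20 of 27 rps summits (74.1%), 27 of 38 rpl summits (71.05%), 556 of 3679 promoter summits (15.1%) and 6.62% of the windows at all promoters. At least 2 stood at 9 rps summits (33.3%), 12 rpl summits (31.6%) and 2.23% of promoter summits. All 3 stood at rps-11 and rps-25, which were among the weaker summits, with pooled signals of 59.2 and 64.1. None stood at 7: rps-0, rps-5, rps-15, rps-22, rps-26, rps-27 and the main summit of rps-28. The joined run GGTCTCGCAGC was found at 3 of 27 rps summits, 2 of 38 rpl summits, 25 of 3679 promoter summits and 27 of 19973 promoter windows, out of 260 sites on the nuclear chromosomes. The 2 strongest summits, rps-1 and rps-19, had 1 of the 3 hexamers each.

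**Figure D4:**
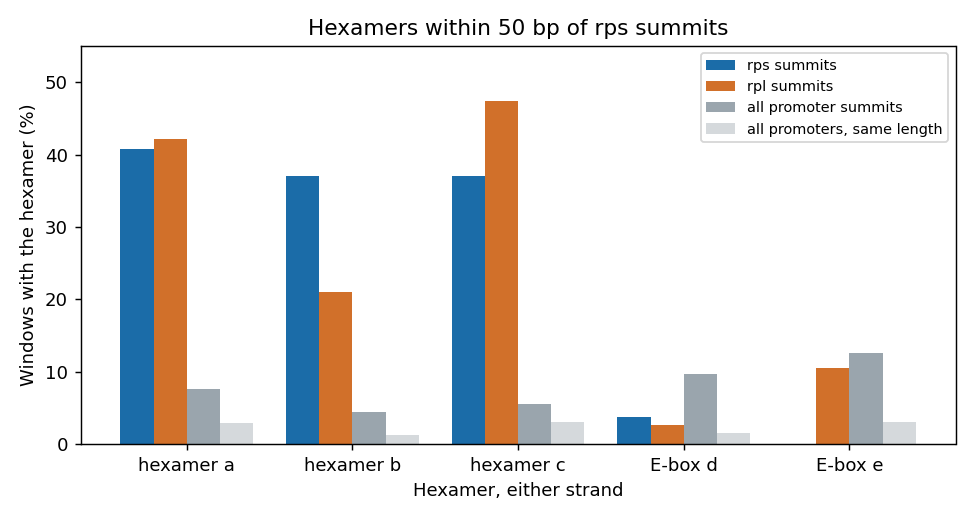
Percent of windows of 101 bp that hold a hexamer on either strand, at rps summits (27), rpl summits (38), all promoter summits (3679) and windows 302 bp upstream of all 19973 genes. Hexamer a is GAGACC, hexamer b is CGCAGC and hexamer c is ACCGTA, and E-boxes d and e are CACGTG and CACATG; at rps summits the first 3 reach 37.0% to 40.7% and the E-boxes 3.70% and 0%.

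The median share of G or C within 50 bp was 50.5% (42.6 to 62.4), close to the 49.5% of rpl summits and above the 44.55% of all promoter summits. The strongest 1433 peaks of the list had 48.5%. How far base composition bears on the hexamer shares was not tested.

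Other genes linked to the 40S subunit or to ribosome assembly in the nucleolus, from a list of 27 names of which 25 were matched, were occupied in 15 cases (60%, against 20.1% of all genes). The names not matched were eif-3.A and eif-3.M, and a gene annotated under another name could be missed or already listed. Of 12 genes for subunits of the initiation factor eIF3, which sits on the 40S subunit, 8 were occupied. The strongest were eif-3.H with a pooled signal of 249 (130 and 119 in replicates 1 and 2) and eif-3.I with 223 (120 and 101), near the level of rps-20. The remaining 2 proteins of the mature subunit whose genes carry other names were lower: ubl-1, which encodes ubiquitin fused to the protein S27a, had 82.3 (43.1 and 37.15), and rack-1, the scaffold on the head, had 36.7 (21.7 and 16.85). In rsks-1, the kinase that phosphorylates the rps-6 protein, pooled signal was 75.7 (39.85 and 34.9) with a CACATG at the summit. Among genes for 40S assembly, riok-1 had 104 (47.25 and 56.35) with a CACGTG, and riok-2, riok-3, byn-1 and pno-1 had no thresholded summit. Nor had nst-1, whose product, nucleostemin, is a nucleolar protein known for assembly of the large subunit. The eIF3 genes eif-3.D, eif-3.F, eif-3.K and eif-3.L and the initiation factor gene eif-1 had none either.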

How the data were processed

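HLH-30-eGFP ChIP-seq of 2 biological replicates was available as peak lists on ce11. According to the deposited sample text, the authors called peaks together with background, relative to a control alignment, on each replicate and on the pool, and derived a thresholded IDR list. Which caller, aligner and IDR threshold were used is not stated in the sources at hand. The signal value deposited by the authors is a score of unstated scale and served to rank and describe entries. Means, SDs and ratios of replicate values set the 2 replicate lists side by side without rescaling. They therefore also hold any difference in scale between those lists. For −log10 q, the authors' lists hold 1 value (4.30) across the 7168 thresholded peaks, so it ranked nothing. The thresholded peaks were the 7168 strongest of the 30000 pooled entries. No read counts are held, so depth is unknown.

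Summits were joined to Ensembl release 115 genes of WBcel235, which is ce11, by promoter windows, and to RefSeq sequence. A replicate alone meant its strongest 7168 entries. A member's replicate value was that of the strongest entry whose interval held the pooled summit. Work was done in Python 3.11.15 with pandas 2.3.3, numpy 2.4.6 and scipy 1.17.1 (Wilson intervals at 95%), and the joining was checked on simulated peaks. No test was made, since there is 1 group. Values are given in full for the 10 strongest rps genes, the 3 weakest with a summit and those with none, and by range and count for the others; rps-29 and the second rps-28 summit were added after their values were seen. The members, lists and this rule were chosen with earlier results of these data known. Lists on ce10 were not used here. Alternatives covered the window, the list, peak overlap, nearest-gene assignment, the 5′ ends and the motif flank.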

Additional observations from a re-analysis of the deposited data

How the results depend on the processing

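Of 53 alternative values, 34 stayed within the limits set for a change, 19 moved and 0 changed direction. The limit was a ratio for counts and the SD between replicates for medians. Counts, signals and the G or C share cannot be negative, so only the median position could have changed direction. With 31 genes, the count of occupied ones could not rise far enough to pass its limit. The tally is therefore no measure of robustness. The count of occupied rps genes was 25 to 28 with a window of 500 bp upstream to 100 bp downstream, a window of 2000 bp upstream to 500 bp downstream or the strongest 3584 peaks. It was 28 to 30 with 1 replicate left out, and 28 for a summit in each replicate, a setting chosen after seeing the data. Giving each summit to its nearest gene left 14 (45.2%, against 16.3% of all genes), by construction, since shared summits then count once, and the median of the best signal over 31 genes was then 0. That median was 112.5 with the narrow window and 59.7 to 67.3 on the scale of single replicates. The median position, -302 bp, was -293 with the narrow window and with the strongest 3584 peaks, -306.5 with the wide window, -297.5 for peaks found in both replicates and -299 to -293 with 1 replicate left out. All but the shift to -299 exceed the SD of 4.24 bp between replicates. Shared summits numbered 16 of 25 with the narrow window and 25 of 28 with the wide one, so their share depends on the window, and 19 to 20 with 1 replicate left out. The E-box count was 0 with the narrow window, which drops rps-29, 0 within 25 bp (12.2% of all promoter summits), 2 within 100 bp (28.6%) and 1 to 2 with 1 replicate left out. The G or C share was 54.9% within 25 bp (47.1% for all promoter summits), 41.8% within 100 bp (40.8%) and 50.5% to 51.5% with 1 replicate left out. Of the 4 genes without a thresholded summit, the pooled list held an entry for 1, replicate 1 for 2 and replicate 2 for 4. No paired analysis was possible because there is 1 group. Shared summits, an unstated score and unknown depth limit what single values show, and which of a pair of genes a shared summit belongs to was not tested.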
